A study of Mus musculus with 36 samples.

Results

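The genes described here are 10 that carry glycerol-3-phosphate to triglyceride and load that triglyceride onto very-low-density lipoprotein (VLDL) in the liver: *Gpam*, *Agpat2*, *Agpat3*, *Lpin1*, *Lpin2*, *Lpin3*, *Dgat1*, *Dgat2*, *Mogat1* and *Mttp*. They were taken by gene symbol from the 38283 rows of the deposited count table, where each symbol matched 1 row, and all 10 were among the 13945 genes that passed the filter on low counts and were tested. The livers of 36 male mice at 16 weeks of age were sequenced, all on a C57Bl/6J background and kept on chow, with 6 mice in each of 6 groups. Wild-type mice and mice with 1 copy of *Pik3r1* truncated at Tyr657 (WT/Y657*) were killed while fed ad libitum, after a 16 h fast, or after a 16 h fast and 6 h of refeeding with chow. The Y657* allele was made by homologous recombination in C57Bl/6 embryonic stem cells together with a neomycin resistance cassette between LoxP sites, is carried in every cell, and models SHORT syndrome, a human disorder of insulin resistance with low adiposity. The comparisons ask how genotype and feeding state bear on the transcripts of the pathway.

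Triglyceride is built on the endoplasmic reticulum by the successive addition of fatty acids to glycerol-3-phosphate. *Gpam* encodes the mitochondrial acyltransferase that makes lysophosphatidic acid, and *Agpat2* and *Agpat3* encode enzymes that convert it to phosphatidic acid. The lipins, encoded by *Lpin1*, *Lpin2* and *Lpin3*, remove the phosphate to give diacylglycerol, the branch point between triglyceride and the main phospholipids, and lipin 1 also acts in the nucleus as a transcriptional coactivator. *Dgat1* and *Dgat2* encode unrelated enzymes that add the last fatty acid, *Mogat1* encodes an enzyme that makes diacylglycerol from monoacylglycerol, and *Mttp* encodes the large subunit of the microsomal triglyceride transfer protein, which lipidates apolipoprotein B. In liver, insulin and carbohydrate feeding are known to favour triglyceride synthesis, while fasting brings fatty acids from adipose tissue that are oxidised or re-esterified.

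The largest changes in either direction among the better-counted members belonged to *Lpin1* and *Lpin2*, so their promoter sequences are shown. Both genes encode phosphatidate phosphatases, and the sequences run from 250 bases before to 50 bases after an annotated transcription start in RefSeq on GRCm38.p6. Of the 10 genes 8 had an entry, with 12 promoters in all, and *Dgat1* and *Dgat2* had none. Each promoter was searched on both strands for the E-box CACGTG, the sterol regulatory element TCACNCCAC, the forkhead site TGTTTAC, the D-box TTANGTAA, the CCAAT box and a direct repeat of AGGTCA spaced by 1 base, and the bases that matched are in capitals. *Lpin1* lies on the minus strand of chromosome 12 and its RefSeq promoter, at chr12:16610917-16611216, held none of these motifs. That window lies outside the deposited *Lpin1* locus, which ends at 16589770, and a start at that end was not searched. *Lpin2* lies on the plus strand of chromosome 17 and its first promoter, at chr17:71183282-71183581, held an E-box that begins 9 bases before the start. A further *Lpin2* promoter, at chr17:71204404-71204703, held a forkhead site in reverse orientation and 3 CCAAT boxes.
Lpin1: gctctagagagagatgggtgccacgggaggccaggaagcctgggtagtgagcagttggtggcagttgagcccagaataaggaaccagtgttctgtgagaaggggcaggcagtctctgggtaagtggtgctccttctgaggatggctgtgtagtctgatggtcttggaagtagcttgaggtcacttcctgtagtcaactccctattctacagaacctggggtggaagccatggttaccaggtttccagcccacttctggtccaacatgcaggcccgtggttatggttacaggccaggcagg
Lpin2, first promoter: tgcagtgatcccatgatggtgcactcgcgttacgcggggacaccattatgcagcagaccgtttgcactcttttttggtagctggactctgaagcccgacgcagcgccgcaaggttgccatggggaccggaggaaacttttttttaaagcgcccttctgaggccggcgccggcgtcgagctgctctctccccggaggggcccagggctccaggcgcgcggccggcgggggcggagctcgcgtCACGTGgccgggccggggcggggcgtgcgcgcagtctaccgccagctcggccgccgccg
Lpin2, further promoter: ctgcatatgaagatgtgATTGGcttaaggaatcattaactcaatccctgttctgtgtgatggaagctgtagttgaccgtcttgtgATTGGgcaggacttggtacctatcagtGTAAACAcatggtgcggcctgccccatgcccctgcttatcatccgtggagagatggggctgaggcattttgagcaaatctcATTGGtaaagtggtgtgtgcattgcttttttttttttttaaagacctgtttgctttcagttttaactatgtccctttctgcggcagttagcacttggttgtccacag
A second *Lpin2* promoter held none of the motifs. Among 32851 mouse promoters of the same length, 7.15% held the E-box, 3.65% the forkhead site, 37.4% the CCAAT box, 1.24% the sterol regulatory element, 2.32% the D-box and 0.0396% the AGGTCA repeat. Elsewhere among the 12 promoters an E-box lay in 1 of *Lpin3*, beginning 23 bases after the start, and CCAAT boxes lay in 1 of *Gpam* and in that of *Mogat1*. The *Gpam* match lies outside the deposited *Gpam* locus, which ends at 55099451. Such matches describe letters in these windows and say nothing about binding. The deposited counts are 1 value per gene, so reads from different start sites cannot be told apart.

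In the GENCODE M21 annotation of GRCm38, the 10 genes lie on 9 chromosomes, and *Agpat2* and *Lpin3* share chromosome 2. The genome build in the submitters' processing notes is mm9, but of the 36425 table genes found by identifier in GENCODE M21, 99.7% had a deposited locus that overlapped the GRCm38 gene, so positions are given there. *Gpam* (ENSMUSG00000024978) spans 55067268 to 55127238 on chromosome 19, *Lpin1* (ENSMUSG00000020593) 16535669 to 16610966 on chromosome 12, *Lpin2* (ENSMUSG00000024052) 71182560 to 71249817 on chromosome 17, *Dgat1* (ENSMUSG00000022555) 76502015 to 76511953 on chromosome 15 and *Dgat2* (ENSMUSG00000030747) 99153658 to 99182719 on chromosome 7. Exons of *Mttp* share 457 bases with *Trmt10a* on the opposite strand, those of *Mogat1* 200 bases with BC035947, and those of *Agpat2* 64 bases with *Egfl7*. The library kit keeps strand, but whether the counting used it is not given in the sources used here, so reads in these stretches may belong to either gene.

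Total counts per mouse ranged from 8839481 to 19542778. Levels are CPM, counts scaled to a fixed library total after normalisation by edgeR's TMM factors, and differences are log2 fold changes with their standard error from edgeR's quasi-likelihood test. Its p-values carry the Benjamini-Hochberg adjustment across the 13945 genes. A gene is called changed at an adjusted p below 0.05. Each p-value sets a difference between groups against the spread between mice, estimated from all 6 groups together. The 10 hepatocyte markers, *Alb* among them, were present in every mouse and summed to between 60600 and 99900 CPM. In whole liver, fewer cells of a type and less RNA per cell cannot be told apart. The labels name mice by genotype and number. In each fasted and refed group 3 mice had low numbers (the lower-numbered series) and 3 had high ones (the higher-numbered series), while the numbers of the fed mice lay in between. Fasting therefore cannot be told apart from mouse number. By the paper's methods, tissue was taken before an overnight fast, at its end, or after refeeding. Time of day therefore cannot be told apart from feeding state either. Mean *Arntl*, a core clock gene, was at 6.01, 14.6 and 3.11 CPM in fed, fasted and refed wild-type mice. In WT/Y657* mice it was at 14, 17.6 and 4.2 CPM.

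The transcripts of the pathway differed widely in level. Compared as CPM per kilobase of exon in fed wild-type mice (mean ± SD, n = 6), *Dgat2* stood at 165 ± 12.3, *Agpat2* at 103 ± 7.16, *Mttp* at 78.2 ± 7.56 and *Gpam* at 53.8 ± 17.9. *Lpin2* at 29.5 ± 11.5, *Agpat3* at 22.7 ± 1.55 and *Lpin1* at 20.2 ± 24.2 followed, and these neighbours differed by less than the spread between mice. The lowest were *Dgat1* at 5.21 ± 0.853, *Lpin3* at 1.73 ± 0.34 and *Mogat1* at 0.453 ± 0.427. Of the summed level per kilobase of the acyltransferases that complete triglyceride, *Dgat2* held 96.9% ± 0.491 and *Dgat1* 3.07% ± 0.491 in fed wild-type mice.

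**Figure D1:**
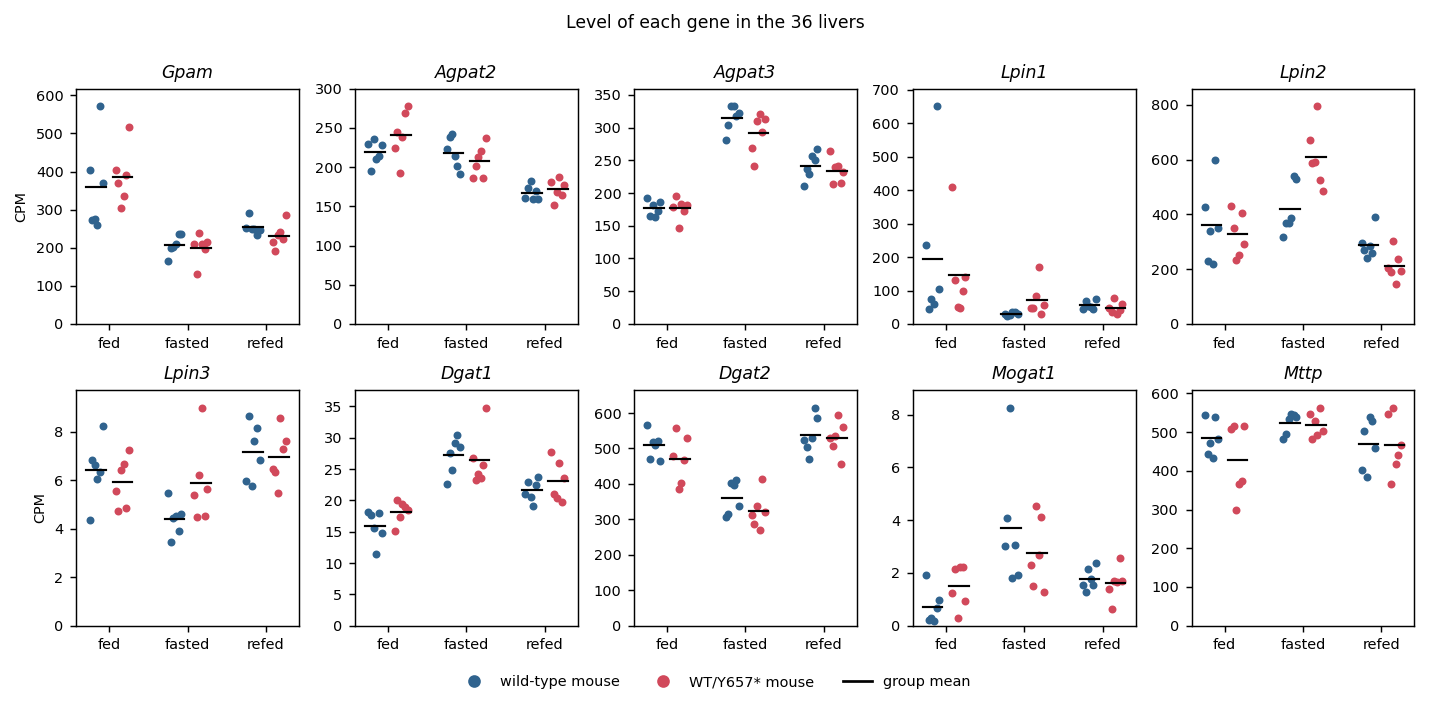
Level of each of the 10 genes in CPM (y axis, from 0) in every mouse, by feeding state (x axis), with wild-type mice in blue, WT/Y657* mice in red and a bar at the mean of each group of 6. *Agpat3* and *Dgat1* sit highest in fasted mice and *Dgat2* lowest, while *Lpin1* in fed wild-type mice runs from 45.8 to 652 CPM.

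Fasting lowered *Gpam*, *Lpin1*, *Lpin3* and *Dgat2* and raised *Agpat3*, *Dgat1* and *Mogat1* in wild-type mice. In WT/Y657* mice it lowered *Gpam*, *Agpat2* and *Dgat2* and raised *Agpat3*, *Lpin2* and *Dgat1*. That is 7 of 10 genes called in wild-type mice, 3 higher and 4 lower, against 32% of all genes tested, and 6 of 10 in WT/Y657* mice, 3 higher and 3 lower, against 32.9%. The median absolute log2 change of the 10 genes was 0.66 for wild-type and 0.63 for WT/Y657* livers, beside 0.25 over every gene tested for either genotype. Groups did not overlap for 5 of the 10 genes in wild-type mice, against 17.6% of genes tested, and for 4 in WT/Y657* mice, against 11.5%.

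**Figure D2:**
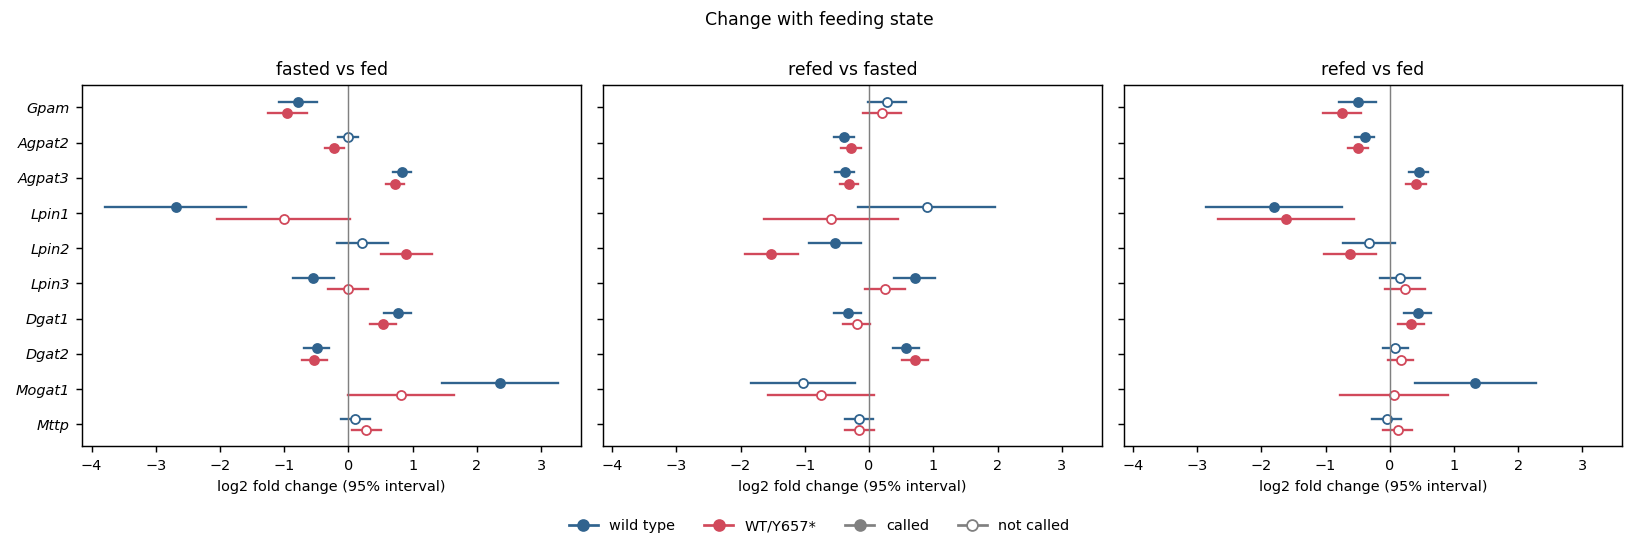
Log2 fold change (x axis) with its 95% interval for each gene (y axis), for fasted against fed, refed against fasted and refed against fed mice, with wild-type mice in blue and WT/Y657* mice in red, and filled circles for genes called by edgeR at an adjusted p below 0.05. *Dgat2* falls with fasting and rises with refeeding in both genotypes, *Agpat3* does the opposite, and the widest intervals belong to *Lpin1* and *Mogat1*.

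*Gpam*, which commits glycerol-3-phosphate to the pathway, fell with fasting in both genotypes. In fed wild-type mice it ranged from 260 to 572 CPM with a median of 322, and in fasted wild-type mice from 164 to 236 with a median of 207, so the groups did not overlap. The log2 change was -0.79 (standard error 0.15, edgeR adjusted p = 0.0001). In the mutants it went from a median of 380 (304 to 518) to 211 (131 to 238), again without overlap, a log2 change of -0.95 (standard error 0.151, edgeR adjusted p = 6.52e-06). Refeeding for 6 h left it at medians of 249 (233 to 292) and 228 (192 to 285) CPM, with log2 changes against fasted mice of 0.28 in wild-type mice (edgeR adjusted p = 0.154) and 0.21 in WT/Y657* mice (edgeR adjusted p = 0.312), neither of which passed the threshold. Fitted to its own 2 groups alone, or with mouse number series as a covariate, the wild-type difference was called (edgeR adjusted p = 0.01 and 0.0496), but it was 0.48 in the lower-numbered and 0.09 in the higher-numbered series. Refed mice remained below fed mice, by -0.5 in wild-type mice (edgeR adjusted p = 0.0114) and by -0.74 in WT/Y657* mice (edgeR adjusted p = 0.000318). The wild-type difference fell to -0.32 (edgeR adjusted p = 0.0729) without fed mouse WT_860, which had the 572 CPM.

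The acylglycerolphosphate acyltransferases went different ways. *Agpat3* rose with fasting from a median of 177 CPM (163 to 192) to 320 (281 to 333) in wild-type mice and from 179 (147 to 196) to 302 (241 to 321) in WT/Y657* mice, with no overlap in either genotype. The log2 changes were 0.83 (standard error 0.0758, edgeR adjusted p = 4.53e-11) and 0.72 (standard error 0.0756, edgeR adjusted p = 1.29e-09). Refeeding brought it part of the way down, to 243 (211 to 267) and 236 (214 to 264) CPM, by -0.38 in wild-type mice (edgeR adjusted p = 0.000149) and -0.31 in WT/Y657* mice (edgeR adjusted p = 0.00131). *Agpat2*, the isoform lost in a form of congenital lipodystrophy, stayed at a median of 218 CPM (191 to 242) in fasted wild-type mice against 221 (195 to 236) in fed ones, a log2 change of -0.01 with a 95% interval of -0.16 to 0.15. It fell in fasted WT/Y657* mice, from 241 (193 to 278) to 208 (186 to 237), by -0.22 (edgeR adjusted p = 0.0278), but the groups overlapped. That call was lost without fasted mouse MT_921 or MT_923 or fed mouse MT_857 or MT_869, with edgeR adjusted p from 0.0714 to 0.0933, and in the fit to these 2 groups alone (edgeR adjusted p = 0.122). After refeeding *Agpat2* was at its lowest, at 165 (159 to 182) CPM in wild-type mice and 173 (152 to 187) in WT/Y657* mice. Both falls from the fasted level were called, by -0.38 (edgeR adjusted p = 0.000217) and -0.27 (edgeR adjusted p = 0.00627), the latter not with scaling by library size alone (-0.17, edgeR adjusted p = 0.099).

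*Lpin1* had the largest fasting change of the 10 genes in wild-type mice and the widest spread among fed mice. In fed wild-type mice it was at 45.8, 61.1, 74.4, 106, 235 and 652 CPM, and in fed WT/Y657* mice at 48.8, 50.1, 98.5, 132, 140 and 411 CPM. The mice at 652 and 411, WT_860 and MT_858, stood far above the others of their groups, and they also had the highest *Lpin2* of their groups, at 599 and 429 CPM. In fasted wild-type mice *Lpin1* ranged from 22.8 to 37.1 CPM, below every fed mouse, a log2 change of -2.69 (standard error 0.563, edgeR adjusted p = 0.000406). Without fed mouse WT_860 the fall was smaller, at -1.78 (edgeR adjusted p = 0.00463). In fasted WT/Y657* mice it ranged from 30.6 to 169 CPM and overlapped the fed range, and the change of -1.01 (standard error 0.53, edgeR adjusted p = 0.149) did not pass the threshold. It did so without fasted mouse MT_827, which had the 169 CPM (-1.46, edgeR adjusted p = 0.0409), and was -0.37 without fed mouse MT_858 (edgeR adjusted p = 0.621). The difference between genotypes in this response was 1.68 with a 95% interval of 0.2 to 3.16 and was not called (edgeR adjusted p = 0.212), and it was 0.77 without WT_860.

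After refeeding *Lpin1* was at 44 to 74.9 CPM in wild-type mice, above every fasted wild-type mouse, and at 28.7 to 76.9 in WT/Y657* mice. The wild-type change of 0.89 was not called with all groups in the fit (standard error 0.543, edgeR adjusted p = 0.226). It was called in the fit to the 2 groups alone (edgeR adjusted p = 0.00121), where the spread of the fed mice does not enter, and with mouse number series as a covariate (edgeR adjusted p = 0.0473). For WT/Y657* mice the change was -0.6 (edgeR adjusted p = 0.422), and its sign turned between the series, at -1.23 in the lower-numbered and 0.23 in the higher-numbered one. Without fasted mouse MT_827 it was -0.15. Refed mice were below fed mice by -1.8 in wild-type mice (edgeR adjusted p = 0.0127) and -1.61 in WT/Y657* mice (edgeR adjusted p = 0.0264). These calls rested on single mice, since without fed mouse WT_860 the wild-type value was -0.89 (edgeR adjusted p = 0.164) and without fed mouse MT_858 the WT/Y657* value was -0.97 (edgeR adjusted p = 0.174), while without refed mouse MT_810 it was -1.5 (edgeR adjusted p = 0.0588). In fits to their own 2 groups neither was called (edgeR adjusted p = 0.0601 and 0.0538), and limma-voom did not call the wild-type one (-1.14, adjusted p = 0.0615).

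*Lpin2*, the lipin with the highest mean level per kilobase in each of the 6 groups, was called with fasting in WT/Y657* mice. It rose from a median of 320 CPM (232 to 429) in fed to 588 (484 to 796) in fasted WT/Y657* mice without overlap, a log2 change of 0.9 (standard error 0.204, edgeR adjusted p = 0.000841). In wild-type mice it was at 346 (218 to 599) fed and 378 (319 to 541) fasted, and the change of 0.21 with a 95% interval of -0.18 to 0.61 did not pass the threshold (edgeR adjusted p = 0.454). Refeeding lowered it to 200 (146 to 304) in WT/Y657* mice, below every fasted mouse of that genotype, by -1.52 (standard error 0.207, edgeR adjusted p = 8.51e-07). In wild-type mice it went to 277 (239 to 392), by -0.53 (standard error 0.203, edgeR adjusted p = 0.0444). The wild-type call was lost without any 1 of 8 mice, 3 fasted (WT_918, WT_919, WT_920) and 5 refed (WT_815, WT_816, WT_828, WT_896, WT_900), with edgeR adjusted p from 0.0508 to 0.114. It was also lost with no filter on low counts (edgeR adjusted p = 0.087) and with scaling by library size alone (-0.46, edgeR adjusted p = 0.0831). Refed WT/Y657* mice were also below fed ones, by -0.62 (edgeR adjusted p = 0.0229), a call lost without fed mouse MT_858 or MT_869 or refed mouse MT_810 (edgeR adjusted p from 0.054 to 0.0691).

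The level of *Lpin3* was low, with 38 to 150 counts per mouse. It fell in fasted wild-type mice from a median of 6.48 CPM (4.36 to 8.24) to 4.46 (3.44 to 5.47), by -0.55 (standard error 0.164, edgeR adjusted p = 0.00955). Refeeding raised it to 7.2 (5.77 to 8.62), above every fasted wild-type mouse, by 0.71 (standard error 0.163, edgeR adjusted p = 0.0009). Its WT/Y657* medians were 5.99 (4.72 to 7.24) fed, 5.52 (4.46 to 8.98) fasted and 6.88 (5.45 to 8.54) refed, and neither step was called (edgeR adjusted p = 0.98 and 0.255). Without fasted mouse MT_827 the refeeding step was called (0.41, edgeR adjusted p = 0.0383).

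Among the 3 lipins, counted per kilobase of exon, *Lpin2* made up 64.3% ± 12.7 (SD, n = 6) in fed and 88.5% ± 2.21 in fasted wild-type mice, and *Lpin1* 31.2% ± 14.8 and 8.25% ± 1.5. In WT/Y657* mice *Lpin2* made up 65.3% ± 12 fed and 85.3% ± 5.37 fasted. In refed mice the share of *Lpin1* was 18.6% ± 2.74 for wild-type and 20.1% ± 3.5 for WT/Y657* livers. *Lpin3* stayed between 2.7% and 8.29% in the group means.

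**Figure D3:**
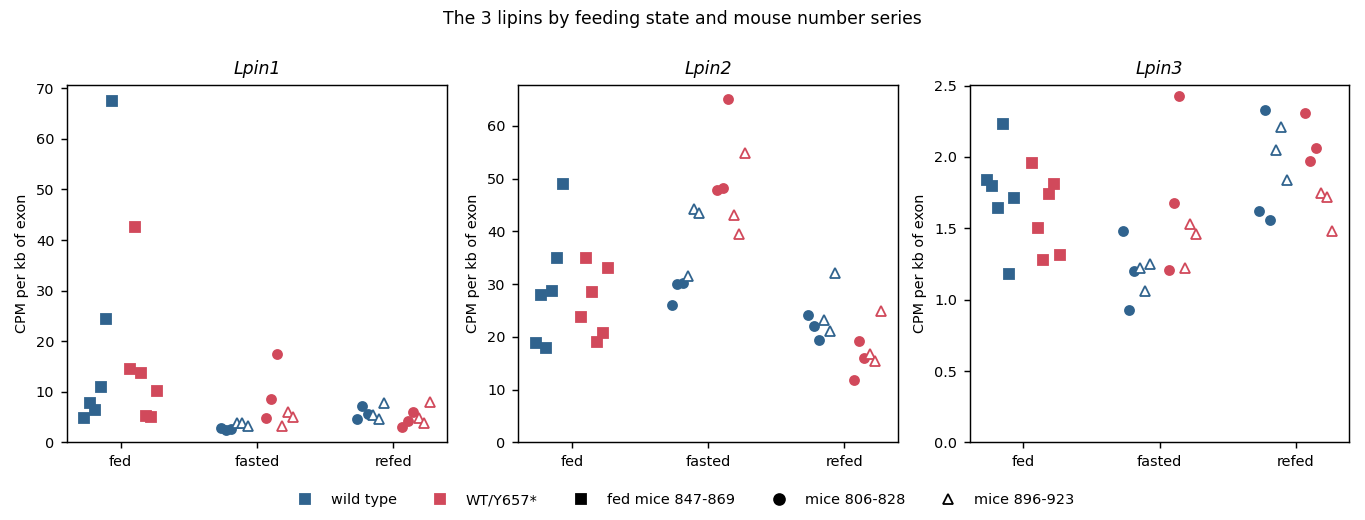
CPM per kilobase of exon (y axis, from 0) of *Lpin1*, *Lpin2* and *Lpin3* in each mouse by feeding state (x axis), with wild-type mice in blue and WT/Y657* mice in red, squares for fed mice, filled circles for the lower-numbered and open triangles for the higher-numbered series. In fasted mice the circles of *Lpin2* separate by genotype and the triangles do not, and the fed squares of *Lpin1* include 1 high mouse per genotype, at 67.4 and 42.5.

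*Dgat1* and *Dgat2* moved in opposite directions. *Dgat2*, which uses newly made fatty acids and is the main such enzyme in liver, fell with fasting from a median of 515 CPM (464 to 567) to 368 (306 to 411) in wild-type mice, without overlap. The WT/Y657* level fell from 474 (386 to 558) to 317 (269 to 414), with 5 of 6 fasted mice below every fed mouse. The log2 changes were -0.49 (standard error 0.0996, edgeR adjusted p = 0.000188) and -0.54 (standard error 0.0997, edgeR adjusted p = 5.29e-05). Refeeding returned it to 527 (469 to 615) and 533 (457 to 594), above every fasted mouse of the genotype, by 0.57 (edgeR adjusted p = 2.67e-05) and 0.71 (edgeR adjusted p = 7.05e-07). Refed mice did not differ detectably from fed mice, with 95% intervals of -0.11 to 0.28 in wild-type and -0.02 to 0.37 in WT/Y657* mice.

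*Dgat1*, which also esterifies fatty acids taken up from outside the cell, rose with fasting from 16.6 CPM (11.4 to 18.1) to 28.1 (22.7 to 30.4) in wild-type mice and from 18.7 (15.1 to 20) to 24.9 (23.3 to 34.8) in WT/Y657* mice. Neither pair of groups overlapped, and the log2 changes were 0.77 (standard error 0.107, edgeR adjusted p = 4.06e-07) and 0.53 (standard error 0.105, edgeR adjusted p = 0.000136). Its share of the pair per kilobase went from 3.07% ± 0.491 to 7.11% ± 0.824 in wild-type mice and from 3.81% ± 0.592 to 7.68% ± 1.36 in WT/Y657* mice (SD, n = 6). Refeeding lowered it to 21.8 (19.1 to 23.7) in wild-type mice, by -0.33 (edgeR adjusted p = 0.0142), which was not called with scaling by library size alone (-0.26, edgeR adjusted p = 0.0659). The WT/Y657* change to 22.3 (19.7 to 27.7) was -0.19 (edgeR adjusted p = 0.16). Refed mice remained above fed mice, by 0.44 (edgeR adjusted p = 0.00197) and 0.34 (edgeR adjusted p = 0.0154), the latter not without refed mouse MT_897 (0.28, edgeR adjusted p = 0.0541).

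*Mogat1* was near the limit of detection, with 2 to 71 counts per mouse. It rose with fasting in wild-type mice from a median of 0.477 CPM (0.171 to 1.91) to 3.03 (1.82 to 8.26), with 5 of 6 fasted mice above every fed mouse, by 2.36 (standard error 0.465, edgeR adjusted p = 0.000138). In WT/Y657* mice it was at 1.7 (0.279 to 2.22) fed and 2.49 (1.28 to 4.55) fasted, a change of 0.83 (standard error 0.422, edgeR adjusted p = 0.135). The difference between the genotypes in this response was -1.54 with a 95% interval of -2.77 to -0.3 and was not called (edgeR adjusted p = 0.163). Refeeding brought it to 1.66 (1.29 to 2.36) in wild-type and 1.67 (0.642 to 2.57) in WT/Y657* mice, by -1.03 (edgeR adjusted p = 0.0568) and -0.76 (edgeR adjusted p = 0.176). The wild-type fall was called by edgeR's likelihood ratio test (adjusted p = 0.0484), DESeq2 (adjusted p = 0.0375), the fit to its 2 groups (edgeR adjusted p = 0.019) and with mouse number series as a covariate (edgeR adjusted p = 0.028), and without fasted mouse WT_918 or WT_920. Without fasted mouse WT_825, at 8.26 CPM, it was -0.65 (edgeR adjusted p = 0.248). Within the higher-numbered series it was -0.27 and within the lower-numbered series it was -1.6. The wild-type refed level was above the fed one by 1.33 (edgeR adjusted p = 0.0341), a call lost without any 1 of 6 mice, fed WT_847, WT_848, WT_849 and WT_860 and refed WT_828 and WT_901 (edgeR adjusted p from 0.057 to 0.0863), and with no filter on low counts (edgeR adjusted p = 0.0703).

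*Mttp* had the smallest spread of the 10 genes, with a root mean square deviation of 0.213 in log2 CPM over the 36 mice. Its medians were 478, 536 and 481 CPM in fed, fasted and refed wild-type mice and 440, 517 and 455 in WT/Y657* mice. The log2 change with fasting was 0.11 (95% interval -0.11 to 0.33) in wild-type and 0.28 (0.06 to 0.5, edgeR adjusted p = 0.0558) in WT/Y657* mice. The latter was called by DESeq2 (adjusted p = 0.0481), by limma-voom (0.3, adjusted p = 0.0359), with at least 10 counts in every library (edgeR adjusted p = 0.0391) and without fed mouse MT_857, MT_858 or MT_859 (0.33, edgeR adjusted p from 0.0267 to 0.0308). Fed WT/Y657* mice were the most spread group, from 299 to 515 CPM.

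Over the whole refeeding step, 6 of 10 genes were called in wild-type mice, 2 higher and 4 lower, against 30.2% of all genes tested, and 4 of 10 in WT/Y657* mice, 1 higher and 3 lower, against 31.3%. Groups did not overlap for 5 and 2 of the 10 genes, against 16.9% and 11.9% of genes tested. Refed against fed, 6 of 10 were called in wild-type mice, 3 higher and 3 lower, against 27.5%, and 6 of 10 in WT/Y657* mice, 2 higher and 4 lower, against 26.1%. Without fed mouse WT_860 the wild-type count of refed against fed mice was 3. These comparisons share mice, since the fasted groups enter both steps and the fed groups enter both fasting and refed against fed.

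Between genotypes, 0 of the 10 genes passed the edgeR threshold in any state. The share of all genes tested that was called was 2.37% in fed mice, 13.1% in fasted mice and 0.0287% in refed mice. At an unadjusted p under 0.05 edgeR gave *Mogat1* in fed mice, the 3 lipins in fasted mice and *Lpin2* in refed mice. The share of all genes tested below that unadjusted p was not counted, and in fasted mice it is at least the 13.1% called. These genes are therefore named without a comparison to all genes. No gene separated the genotypes fully in any state, while 1.07%, 5.04% and 0.624% of genes tested did so in fed, fasted and refed mice.

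**Figure D4:**
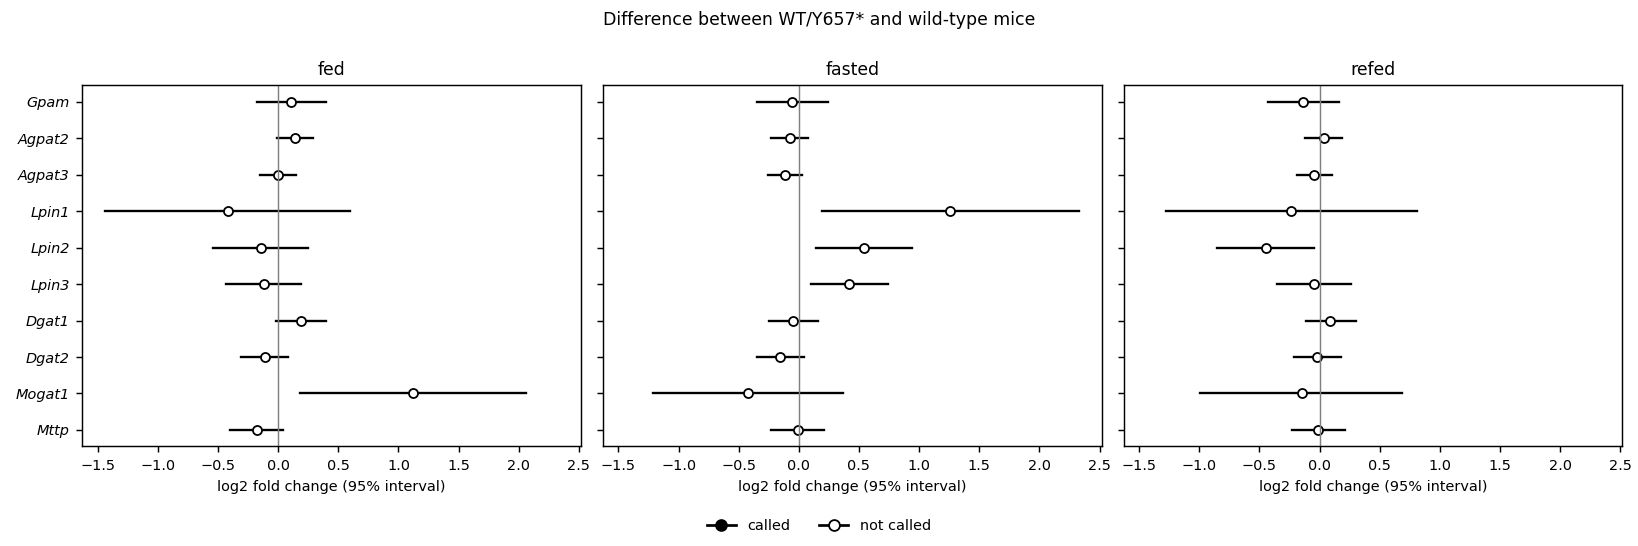
Log2 fold change of WT/Y657* over wild-type mice (x axis) with its 95% interval for each gene (y axis) in fed, fasted and refed mice, with open circles for genes that edgeR did not call at an adjusted p below 0.05. All circles are open, and the lipins sit to the right of 0 in fasted mice, at 1.26, 0.54 and 0.42.

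Among the genotype differences within a feeding state, the values nearest the threshold belonged to the 3 lipins in fasted mice. The log2 difference of WT/Y657* from wild-type mice was 0.54 for *Lpin2* (standard error 0.203, 95% interval 0.14 to 0.94, edgeR adjusted p = 0.0749), with 4 of 6 mutants above the whole wild-type range. For *Lpin3* it was 0.42 (standard error 0.165, edgeR adjusted p = 0.0856), with 3 of 6 mice above, and without MT_827 it was 0.25 (edgeR adjusted p = 0.341). For *Lpin1* it was 1.26 (standard error 0.545, edgeR adjusted p = 0.127), with 5 of 6 mice above, and without MT_827, which had the 169 CPM, it was 0.81 (edgeR adjusted p = 0.374). DESeq2 called *Lpin2* (0.53, adjusted p = 0.0426), as did the edgeR fit to the 2 fasted groups alone (0.56, adjusted p = 0.0175). With mouse number series as a covariate edgeR called both *Lpin2* (0.56, adjusted p = 0.0173) and *Lpin1* (1.24, adjusted p = 0.0191). The difference was not even between the series. In the lower-numbered series, *Lpin2* was at 319 to 370 CPM in wild-type and 586 to 796 in WT/Y657* mice (n = 3 each), a log2 difference of 0.9, and *Lpin1* differed by 1.95. In the higher-numbered series, *Lpin2* was at 387 to 541 and 484 to 672 CPM, a difference of 0.21, and *Lpin1* differed by 0.39. *Arntl*, a core clock gene, was at 17.6 to 24.3 CPM in the fasted wild-type mice of the lower-numbered series and at 6.65 to 10.7 in those of the higher-numbered one, and at 15.3 to 28.6 and 5.24 to 17.4 in the fasted WT/Y657* mice. Its part in the lipin values was not tested.

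In refed mice the *Lpin2* difference was -0.45 (standard error 0.203, 95% interval -0.85 to -0.05, edgeR adjusted p = 0.473), with 5 of 6 mutants below the whole wild-type range. The genotype difference in the refeeding response of *Lpin2*, which sets those values against each other, was -0.99 (standard error 0.287, 95% interval -1.55 to -0.42, edgeR adjusted p = 0.0636). By edgeR's quasi-likelihood test with all groups it missed the threshold, and 0 of 10 genes were called there against 2.06% of all genes tested. It passed with edgeR's likelihood ratio test (adjusted p = 0.0385), DESeq2 (adjusted p = 0.0196), limma-voom (adjusted p = 0.0457), at least 10 counts in every library (edgeR adjusted p = 0.0464), the fit to its 4 groups (edgeR adjusted p = 0.025), mouse number series as a covariate (edgeR adjusted p = 0.017) and without refed mouse MT_899 (-1.11, edgeR adjusted p = 0.0312). Within the series the difference was -1.38 in the lower-numbered and -0.62 in the higher-numbered series. In the fasting response, 0 of 10 genes differed between genotypes by edgeR, against 4.35% of all genes tested, and the *Lpin2* value was 0.69 (95% interval 0.12 to 1.25, edgeR adjusted p = 0.178).

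In fed mice the largest genotype value was that of *Mogat1*, at 1.12 (standard error 0.48, edgeR adjusted p = 0.206), with 3 of 6 mutants above the whole wild-type range and counts of 2 to 38 per mouse. Among fed mice genotype nearly follows mouse number, and within the neighbouring numbers from WT_856 to WT_860, with 2 wild-type and 3 WT/Y657* mice, the difference was 0.22. *Lpin1* gave -0.42 with a 95% interval of -1.44 to 0.6, and the sign turned without fed mouse WT_860 (0.49). *Dgat2* and *Mttp* gave -0.11 (95% interval -0.31 to 0.08) and -0.18 (-0.4 to 0.04). Across the 3 states the 95% intervals of *Agpat3* between genotypes lay within -0.26 and 0.15, and those of *Dgat1* within -0.25 and 0.4.

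Other genes of glycerolipid synthesis responded to fasting in both directions. Of 18 tested, 8 rose and 3 fell in wild-type mice and 6 rose and 3 fell in WT/Y657* mice, against 32% and 32.9% of all genes tested, with median log2 changes of 0.26 and 0.12. *Gyk*, the glycerol kinase that makes glycerol-3-phosphate from glycerol, rose by 1.53 (from 111 to 321 CPM, edgeR adjusted p = 1.15e-13) and 1.62 (from 107 to 330, edgeR adjusted p = 2.61e-14). *Gpat3*, an endoplasmic reticulum counterpart of *Gpam*, rose by 2.94 (from 4.2 to 32 CPM, edgeR adjusted p = 1.92e-09) and 2.79 (from 4.38 to 30.8, edgeR adjusted p = 3.23e-09), so it moved against *Gpam*. *Acsl4*, which activates arachidonic acid, fell by -1.44 in wild-type mice (edgeR adjusted p = 2.02e-08) and -0.73 in WT/Y657* mice (edgeR adjusted p = 0.000544). *Acsl3* fell by -0.64 in wild-type mice (edgeR adjusted p = 0.00312) and -1.24 in WT/Y657* mice (edgeR adjusted p = 6.52e-07). *Agpat5* fell by -0.34 in wild-type mice (edgeR adjusted p = 0.0026) and its WT/Y657* value was -0.03 (edgeR adjusted p = 0.853). Between genotypes in fasted mice 2 of the 18 were higher and 5 lower in WT/Y657* mice, against 13.1% of all genes tested. *Plpp3*, a plasma membrane lipid phosphate phosphatase, was lower by -0.61 (226 against 148 CPM, edgeR adjusted p = 0.000267) and *Gpd1*, which makes glycerol-3-phosphate from a glycolytic intermediate, by -0.56 (edgeR adjusted p = 0.0103). *Agpat5* and *Acsl4* were higher by 0.32 (edgeR adjusted p = 0.0137) and 0.5 (edgeR adjusted p = 0.0359). None of the 18 was called by edgeR between genotypes in fed or refed mice, against 2.37% and 0.0287% of all genes tested.

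Of 14 other genes of VLDL assembly and secretion, 2 rose and 5 fell with fasting in wild-type mice and 4 rose and 5 fell in WT/Y657* mice, against 32% and 32.9% of all genes tested. *Tm6sf2*, a factor that enriches VLDL in lipid, rose by 0.48 (edgeR adjusted p = 0.00747) and 0.42 (edgeR adjusted p = 0.0171), and *Ces1d*, a lipase of stored triglyceride, by 1.04 in wild-type mice (edgeR adjusted p = 0.00399), where the WT/Y657* value was 0.61 (edgeR adjusted p = 0.0848). *Pla2g12b* rose by 0.38 in WT/Y657* mice (edgeR adjusted p = 4.82e-05) and was at 0.13 in wild-type mice (edgeR adjusted p = 0.174). *Pdia3*, an endoplasmic reticulum foldase, fell by -1.2 (513 to 223 CPM, edgeR adjusted p = 2.08e-09) and -0.68 (364 to 227 CPM, edgeR adjusted p = 6.19e-05), and *Arf1*, of vesicle transport, by -0.37 (edgeR adjusted p = 1.4e-05) and -0.3 (edgeR adjusted p = 0.000211). Between genotypes 1 of the 14 was called in the fed state, *Pdia3* at -0.49 (edgeR adjusted p = 0.0298), against 2.37% of all genes tested. In fasted mice 1 was lower and 1 higher in WT/Y657* mice, against 13.1% of all genes tested. *Cideb*, a lipid droplet protein needed to lipidate VLDL, was lower by -0.34 (edgeR adjusted p = 0.0062) and *Pla2g12b* higher by 0.25 (edgeR adjusted p = 0.0142).

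In the phospholipid branch, which competes for diacylglycerol, 8 of 17 genes rose and 2 fell with fasting in wild-type mice, and 5 rose and 1 fell in WT/Y657* mice, against 32% and 32.9% of all genes tested. *Chkb*, a choline kinase, rose by 1.3 (23.9 to 59 CPM, edgeR adjusted p = 2.45e-12) and 1.32 (26.9 to 67.2 CPM, edgeR adjusted p = 1.83e-12). *Pisd*, which makes phosphatidylethanolamine in mitochondria, rose by 0.45 (edgeR adjusted p = 1.14e-05) and 0.38 (edgeR adjusted p = 0.000148), and *Chpt1*, which makes phosphatidylcholine from diacylglycerol, by 0.57 (edgeR adjusted p = 0.00298) and 0.89 (edgeR adjusted p = 1.3e-05). *Etnk1* and *Pemt* fell by -0.23 and -0.2 in wild-type mice (edgeR adjusted p = 0.0118 and 0.0189), with WT/Y657* values of 0.02 and -0.02. *Pcyt1a*, the rate-limiting enzyme of phosphatidylcholine synthesis, fell by -0.26 in WT/Y657* mice (edgeR adjusted p = 0.0161), with a wild-type value of 0.02. It was also lower in fasted WT/Y657* than wild-type mice, by -0.29 (edgeR adjusted p = 0.018), as was *Lpcat3*, by -0.27 (edgeR adjusted p = 0.041). Those are 2 of 17 in fasted mice, against 13.1% of all genes tested. No other gene of the 17 was called by edgeR between genotypes in any state.

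Of 16 regulators of these genes, 5 rose and 4 fell with fasting in wild-type mice and 4 rose and 6 fell in WT/Y657* mice, against 32% and 32.9% of all genes tested. *Srebf1*, the insulin-responsive activator of lipogenic genes, fell by -2.58 (median 526 to 78 CPM, edgeR adjusted p = 5.77e-12) and -3.81 (622 to 45.9 CPM, edgeR adjusted p = 3.8e-15). *Creb3l3* rose by 0.65 (edgeR adjusted p = 6.53e-06) and 0.78 (edgeR adjusted p = 2.92e-07). *Ppara*, the fatty acid sensor of fasting, rose by 0.7 (edgeR adjusted p = 7.32e-07) and 0.5 (edgeR adjusted p = 0.000156), and *Ppargc1a*, a coactivator of *Lpin1* transcription, by 0.67 (edgeR adjusted p = 0.00491) and 0.99 (edgeR adjusted p = 6.48e-05). *Xbp1* fell by -1.09 (edgeR adjusted p = 6.19e-10) and -0.74 (edgeR adjusted p = 1.81e-06), and *Nr3c1*, the glucocorticoid receptor, by -0.25 (edgeR adjusted p = 0.00895) and -0.56 (edgeR adjusted p = 2.75e-07). In fasted mice 4 of the 16 were lower in WT/Y657* mice and 0 higher, against 13.1% of all genes tested. *Srebf1* was lower by -1.07 (edgeR adjusted p = 0.000374), at 22.8 to 54 CPM against 64.3 to 139 with no overlap, and *Ppara* by -0.55 (edgeR adjusted p = 0.000328). In fed mice *Xbp1* alone was lower (-0.45, edgeR adjusted p = 0.0216), 1 of the 16 against 2.37% of all genes tested.

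The genes nearest to each member in pattern were those with the smallest root mean square difference in log2 CPM, centred on each gene's mean, over 36 mice and 12601 genes with a mean of at least 1 CPM. *Agpat3* was nearest to *Cpt2* (0.131) and *Creb3l3* (0.133), against a spread of 0.34 in *Agpat3* itself. *Gpam* was nearest to *Gcat* (0.203) and *Rnf146* (0.215), *Dgat1* to *Fcgrt* (0.161) and *Mpdu1* (0.173), and *Dgat2* to *Ttc7* (0.142) and *Rnf181* (0.147). The own spreads of *Gpam*, *Dgat1* and *Dgat2* were 0.436, 0.324 and 0.327. *Agpat2* was nearest to *Cdk13* (0.144) and *Tmprss6* (0.146), *Mttp* to *Slc35a3* (0.144) and *Zfp91* (0.153), and *Lpin3* to *Prpf31* (0.24) and 1110051M20Rik (0.241). The own spreads of *Agpat2*, *Mttp* and *Lpin3* were 0.225, 0.213 and 0.333, and their nearest genes differed by a large part of these. The genes nearest to *Lpin1*, Gm14420 (0.703) and Gm8898 (0.716), also differed by a large part of its own spread of 1.06. *Lpin2*, with a spread of 0.575, was nearest to *Rab9* (0.333) and *Mcart1* (0.34), and *Mogat1*, with 1.01, to *Rdh16* (0.618) and Gm4952 (0.63).

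The defining markers of adipocytes and enterocytes, which also make these enzymes, were low or absent. The defining adipocyte genes *Adipoq*, *Plin1*, *Retn* and *Lep* were at 0 in the median mouse and reached at most 2.65 CPM. The 10 adipocyte markers summed to 45.5 to 71.5 CPM in fed mice and 80.2 to 229 in fasted and 59.7 to 90.5 in refed mice. Those with the highest medians over all mice were *Pnpla2* (34.8 CPM), *Cidec* (15.9) and *Lipe* (15), and hepatocytes also express *Cidec* and *Pnpla2*. Of 10 enterocyte markers, *Sis*, *Alpi*, *Cdx1* and *Krt20* were at 0 in every mouse, and the sum of 111 to 4590 CPM came mostly from *Apoa4* and *Fabp2*, which liver also expresses. Summed markers of Kupffer cells ranged from 228 to 835 CPM in fed WT/Y657* mice and from 235 to 303 in fed wild-type mice. The stellate cell and fibroblast markers summed to 469 to 718 CPM in fed WT/Y657* and 337 to 499 in fed wild-type mice, and the endothelial markers to 371 to 484 and 302 to 379. In the other 4 groups those lists ran from 246 to 782, 352 to 602 and 314 to 459 CPM. The markers of cholangiocytes, lymphocytes, exocrine pancreas and skeletal muscle reached at most 79, 49, 25.8 and 3.89 CPM. The part of these cells in the members' values was not tested.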

How the data were processed

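Total RNA from the livers of 36 mice was sequenced from stranded libraries as 50-base single reads. The authors counted reads per gene and deposited a table of estimated counts, not normalised, of which 3.64% of the non-zero values are not whole and were rounded here. The submitters' processing notes name Cuffdiff, SAMtools, FeatureCount and edgeR, without versions given here, and build mm9, although the deposited loci match GRCm38. A further deposited table of fitted values per group was not used.

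Mice were grouped by genotype and feeding state from their labels. Counts from 8839481 to 19542778 per mouse were normalised with edgeR's TMM factors (0.914 to 1.09) and tested in edgeR 4.0.16 (R 4.3.3) with a robust quasi-likelihood fit over all 6 groups, after edgeR's filter on low counts by group, which left 13945 of 38283 genes. The common biological coefficient of variation was 0.181. Low counts, 2 to 71 for *Mogat1*, limit precision. Benjamini-Hochberg adjustment covered all genes tested, at a threshold of 0.05. Standard errors were derived from the log2 fold change and the F statistic. Levels between genes were compared per kilobase of GENCODE M21 exon. In simulated counts for the genotype effect in fasted mice, with 13793 genes, 86% of genes changed 2-fold and 99% of those changed 4-fold were recovered, and 3.14% of calls were false. The changed genes, 100 at each size against 1821 called in the data, were drawn from those above a minimum mean count. No outlying mice, mouse number series or feeding effects were simulated. The recovery need not hold for a gene as spread as *Lpin1*, whose 2.4-fold difference here (standard error 0.545 in log2) was not called. Recovery of changes smaller than 2-fold was not tested.

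The alternatives were edgeR's likelihood ratio test, DESeq2 1.42.0, limma-voom (limma 3.58.1), other scalings and filters, only the groups compared, mouse number series as a covariate or within series, and leaving out each mouse. The 10 genes, the lists (other glycerolipid synthesis, VLDL assembly and secretion, phospholipid branch, regulators, and markers of other cell types) and the promoter motifs were chosen with earlier results of these data known. From each of the first 4 lists, up to 2 called genes with the smallest p in each direction are named for the fasting responses and the genotype effects in fasted and fed mice.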

Additional observations from a re-analysis of the deposited data

Results flagged for a closer look

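In 6 of the 60 groups of 6 mice, over the 10 genes, the highest mouse stood far from the others by Dixon's criterion. For normally distributed values chance gives such a mouse in about 1 group in 20. That rate was not checked for CPM, and the same mice enter for each gene. *Lpin1* had 1 in each fed group, mouse WT_860 at 652 CPM among wild-type mice, where the next was at 235, and mouse MT_858 at 411 CPM among WT/Y657* mice, where the next was at 140. In refed wild-type mice, *Gpam* was at 292 CPM in mouse WT_816, with the next at 251, and *Lpin2* at 392 CPM in mouse WT_901, with the next at 295. In fasted mice, *Dgat1* was at 34.8 CPM in WT/Y657* mouse MT_922, with the next at 26.8, and *Mogat1* at 8.26 CPM in wild-type mouse WT_825, with the next at 4.08. None of these values was removed.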

How the results depend on the processing

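No paired analysis was possible because every mouse number occurs in 1 group only. Of 1872 values with 1 mouse left out, 1758 stayed alike, 49 lost a call or fell, 11 gained one or rose and 54 changed sign. A fold change stayed alike if it kept its direction and its side of the threshold. A count of genes called stayed alike if it lay within a set ratio of the reported count. Of 1123 values under the other fits and scales, 1052 stayed alike by the same measure, 13 lost a call or fell, 36 gained one or rose, 13 changed sign and 9 moved by more than the spread between replicates. Of 110 untested values within mouse number series, 16 had another sign and 16 moved by more than that spread. The causes of these changes were not tested.

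Between genotypes in fasted mice, 1 of the 10 genes was called by DESeq2, 1 in the fit to the 2 groups and 2 with mouse number series as a covariate, against 0 in the fit reported. In the refeeding response, 1 differed between genotypes by the likelihood ratio test, DESeq2, limma-voom, the filter of 10 counts in every library, the fit to the 4 groups and the series covariate, and 0 to 1 with 1 mouse left out. Refed against fed, 3 to 6 were called in wild-type mice with 1 mouse left out, the 3 without WT_860.

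The values whose sign turned were not called in the fit reported. With scaling by library size alone, these were *Agpat3* in fed mice (0.09 between genotypes), *Mttp* in fasted mice (0.03), *Agpat3* (0.02), *Lpin3* (0.02), *Dgat2* (0.05) and *Mttp* (0.06) in refed mice, *Agpat2* with fasting in wild-type mice (0.00) and *Mttp* in refed against fed wild-type mice (0.03). With the filter of 10 counts they were *Agpat3* in fed mice (0.01), *Mttp* in fasted mice (0.01) and the *Mttp* difference in refeeding response (-0.01), and with only the groups compared *Mttp* in fasted mice (0.01) and *Agpat2* with fasting in wild-type mice (0.00). With 1 mouse left out, the range between fed genotypes was -0.04 to 0.04 for *Agpat3*, -1.06 to 0.49 for *Lpin1* and -0.26 to 0.06 for *Lpin2*. Between fasted genotypes it was -0.12 to 0.04 for *Gpam* and -0.04 to 0.01 for *Mttp*, and between refed genotypes -0.11 to 0.02 for *Lpin3*, -0.06 to 0.02 for *Dgat2*, -0.33 to 0.02 for *Mogat1* and -0.07 to 0.05 for *Mttp*. With fasting it was -0.04 to 0.03 for *Agpat2* in wild-type and -0.18 to 0.06 for *Lpin3* in WT/Y657* mice. Refed against fed it was -0.09 to 0.00 for *Mttp* in wild-type and -0.15 to 0.24 for *Mogat1* in WT/Y657* mice. The genotype difference ranged from -0.13 to 0.01 for *Dgat2* in the fasting response, and from -0.11 to 0.46 for *Mogat1* and -0.06 to 0.06 for *Mttp* in the refeeding response. Within the lower-numbered series the sign turned for *Gpam* between fasted genotypes (0.03) and for *Agpat3* (0.03), *Lpin3* (0.21), *Dgat2* (0.11), *Mogat1* (0.26) and *Mttp* (0.05) between refed ones. Within the higher-numbered series it turned for *Agpat2* (0.01) and *Mogat1* (0.18) between fasted genotypes, *Lpin1* with refeeding in WT/Y657* mice (0.23) and the genotype difference in refeeding response of *Dgat2* (-0.01), *Mogat1* (-0.79) and *Mttp* (-0.04). Within WT_856 to WT_860 it turned for *Gpam* (-0.18), *Agpat3* (0.02), *Lpin3* (0.12) and *Dgat1* (-0.01) between fed genotypes.

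Over all genes, the number called between genotypes in fed mice was 330, against 516 by the likelihood ratio test, 644 by DESeq2, 756 by library size, 207 with no filter, 30 in the fit to the 2 groups and, with 1 mouse left out, from 68 (without MT_868) to 2.72 times the reported count (without MT_858), with 593 without MT_857. In refed mice it was 4, against 18, 25 and, with the series covariate, 12. With no filter, the genotype difference was called for 386 rather than 607 genes in the fasting response and 152 rather than 287 in the refeeding response. With 1 mouse left out, the latter fell to 124 without MT_806 and 138 without MT_923 and lay between 164 and 180 without MT_898, WT_825, WT_828, WT_901 or MT_817, the fasted genotype count of 1821 fell to 1168 without MT_806, and the refed one ranged from 1 (without WT_815, WT_828, WT_896, WT_900, WT_901 or MT_898) to 6.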
